A study of Mus musculus with 6 samples.

Results

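Of the 28777 genes counted in the E13.5 mouse cardiac outflow tract (OFT), 7 are described here: Gipr, Neil2, Fam193b, Pisd-ps1, Gm7162 and Gm49759, which lie away from Nos3, and Pkm, the gene that hosts Gm49759. The first 6 were chosen by the difference between the groups: every library labelled mutant was above every library labelled wildtype, with a small spread, so their differences are given as a description and not as a test. Pkm was added for its position and not for its level. All 7 had more than 5 reads over the libraries and were among the 28157 genes tested.

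The 3 libraries labelled mutant came from compound embryos, heterozygous for a Notch1 null allele and homozygous for a Nos3 null allele (Notch1+/-; Nos3-/-), and the 3 labelled wildtype from littermates with both genes intact (Notch1+/+; Nos3+/+). Both are germline alleles, so no cell of the mutant OFT is spared. Each library held the RNA of 3 pooled OFTs, cut off below the conal cushions, so a single embryo cannot be followed and every cell type of the OFT is mixed. Totals were between 34729103 and 44387490 counts per library, and 1 count was worth so little that 3 counts, the floor used here, stood at 0.0675 to 0.0924 CPM, the usual measure of a gene's count relative to the TMM-scaled total of its library. The fewest counts of a raised gene in any library were 122, for Neil2.

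The targeted genes only partly followed the labels. Nos3 was at 31.8 CPM in wildtype replicate 1, 47.2 in wildtype library SL203086 and 48.1 in wildtype library SL203087, against 22.1, 22.0 and 20.4 CPM in mutant replicates 1, 2 and 3. Notch1, which a heterozygous null allele would be thought to lower, was at 74.3, 88.2 and 83.6 CPM under the wildtype label and at 155, 161 and 139 CPM under the mutant label (log2 fold change 0.89, SE 0.10, adjusted p = 0.0313 by edgeR, with a threshold of 0.05 throughout). Directions below are therefore those of the labels. Wildtype libraries SL203086 and SL203087 are named by their library numbers, because the sample records give both numbers to wildtype replicates 2 and 3.

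The 6 raised genes have little in common by function. Gipr is the receptor for the gut hormone GIP, a Gs-coupled receptor that raises cyclic AMP and is best known in pancreatic beta cells. Neil2 is a DNA glycosylase that removes oxidized bases in the first step of base excision repair. Fam193b codes for a protein whose function is little described. Pisd-ps1 and Gm7162 are pseudogenes: the first is a partly duplicated, transcribed copy of Pisd, which codes for the mitochondrial phosphatidylserine decarboxylase, and the second resembles a reverse-transcribed copy of Rangap1, the activator of the Ran GTPase in nuclear transport.

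Gm49759 is a gene model of the class TEC, set aside for experimental follow-up, a transcribed stretch with no known product. It lies within Pkm, on the same strand. Pkm makes the pyruvate kinase of most tissues, which catalyses the last step of glycolysis. Its transcript includes 1 of a pair of mutually exclusive exons: the M1 exon is typical of adult striated muscle, heart and brain, and the M2 exon of embryonic and proliferating tissue. The splicing factors Ptbp1, Hnrnpa1 and Hnrnpa2b1 are known to repress the M1 exon.

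In the annotation of mm10, Gm49759 is a single exon at chr9:59672814-59676700 on the + strand, starting 16446 bases after the start of Pkm (chr9:59656368-59679375) and ending 2675 bases before its end. Of its 3887 bases, 3120 (80.3%) are in no exon of any annotated Pkm transcript, and 334 are in exons of coding ones. Those 334 bases are both mutually exclusive exons, printed here because a read within Gm49759 can fall in them or in the introns beside them. The M1 exon (chr9:59675029-59675195, of transcript Pkm-202) and the M2 exon (chr9:59675568-59675734, of Pkm-201) are in capitals, each with 40 bases of intron on either side in lower case, on the + strand of GENCODE's Gm49759 transcript.
M1 exon: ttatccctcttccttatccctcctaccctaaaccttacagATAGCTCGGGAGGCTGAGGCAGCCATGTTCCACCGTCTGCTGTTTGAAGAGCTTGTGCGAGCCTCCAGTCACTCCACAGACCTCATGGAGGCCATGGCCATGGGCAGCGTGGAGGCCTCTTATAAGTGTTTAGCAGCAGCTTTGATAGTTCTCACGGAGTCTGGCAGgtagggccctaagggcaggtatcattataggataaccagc
M2 exon: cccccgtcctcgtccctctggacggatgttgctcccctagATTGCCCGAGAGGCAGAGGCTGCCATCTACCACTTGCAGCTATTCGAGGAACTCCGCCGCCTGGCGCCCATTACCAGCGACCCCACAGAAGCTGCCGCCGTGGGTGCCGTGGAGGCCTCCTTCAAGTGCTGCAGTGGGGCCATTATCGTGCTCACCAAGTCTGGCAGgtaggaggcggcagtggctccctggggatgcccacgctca
Both exons are 167 bases long and carry the same base at 103 of the 167 positions (61.7%), so a read of 50 bases can usually be placed in one or the other. Of the 3838 windows of 50 bases in Gm49759, 623 (16.2%) are also in an annotated Pkm transcript, and these 2 genes' counts are uncertain to the extent that such reads were given to either gene or dropped.

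The pseudogenes differ in how far their reads can be told from those of their parent genes. Gm7162 (chr17:12819819-12820842, - strand) aligned to Rangap1 over 1042 bases at 88.5% identity, and of its 975 windows of 50 bases 5 also occur in Rangap1 and 21 in Gm16574, another pseudogene. Pisd-ps1 (chr11:3125904-3131004, + strand) aligned to Pisd over 1128 bases at 94.1% identity, and 202 of its 1768 windows (11.4%) occur in another gene, 164 of them in Pisd, 127 in the protein-coding model Gm20671 and 111 in the pseudogene Pisd-ps2, some in more than 1 of these. The first 90 bases of each pseudogene transcript are shown above the same stretch of the parent's coding sequence, with the positions that differ in capitals, 11 for Gm7162 and 3 for Pisd-ps1.
Gm7162: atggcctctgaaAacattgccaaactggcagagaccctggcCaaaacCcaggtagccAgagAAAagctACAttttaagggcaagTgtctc
Rangap1: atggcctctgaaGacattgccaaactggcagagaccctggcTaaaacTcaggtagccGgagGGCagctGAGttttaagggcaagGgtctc
Pisd-ps1: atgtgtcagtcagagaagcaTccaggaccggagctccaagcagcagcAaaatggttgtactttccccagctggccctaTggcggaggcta
Pisd: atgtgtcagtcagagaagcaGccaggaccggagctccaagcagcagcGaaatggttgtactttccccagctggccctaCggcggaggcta
The other raised genes are more distinct. No window of Gipr or Fam193b, and 2.14% of those of Neil2, was shared with another gene.

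Gipr had the largest log2 fold change of the 6. Its level was 11 CPM in wildtype replicate 1, 9.78 in SL203086 and 6.93 in SL203087, and 21.4, 21.1 and 19.4 CPM in mutant replicates 1, 2 and 3. The mutant libraries lay close together and the lowest stood 1.76-fold above the highest wildtype library. The means were 20.6 ± 1.1 CPM under the mutant label and 9.24 ± 2.09 under wildtype (SD, n = 3 each), a log2 fold change of 1.15 (SE 0.16). The wildtype spread was wide, and the pooled SD of Gipr, 0.249 on the log2 scale, was above that of 82.1% of 5108 genes of similar level, so "small spread" is not an apt description of this gene. Gipr (chr7:19156061-19166127, - strand) lies between Snrpd2 and Eml2, whose log2 fold changes were -0.36 (SE 0.13) and -0.32 (SE 0.11), neither called by edgeR or DESeq2. Eml2 was lower under the mutant label without overlap, as were 8.94% of all genes tested.

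Neil2 was the lowest of the 6 in level and next to Gipr in fold change. It was at 3.51 CPM in wildtype replicate 1, 2.94 in SL203086 and 3.79 in SL203087, and at 6.80, 8.06 and 6.87 CPM in mutant replicates 1, 2 and 3. Mutant replicate 2 stood above the other mutant libraries, and the lowest of these was still 1.79-fold above the highest wildtype library, the widest gap among the 6. The means were 7.24 ± 0.708 and 3.41 ± 0.434 CPM (SD, n = 3 each), a log2 fold change of 1.09 (SE 0.17). Neil2 (chr14:63182443-63193856, - strand) is next to Gata4, a cardiac transcription factor gene, at 0.20 (SE 0.09), and to Fdft1, of cholesterol synthesis, at -0.01 (SE 0.09), and neither was called by edgeR or DESeq2. Gata4 was higher under the mutant label without overlap, as were 10.7% of all genes tested.

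Fam193b, the most abundant of the 6 in CPM, had the smallest fold change. It was at 41.3, 38.1 and 34.7 CPM in wildtype replicate 1, SL203086 and SL203087, and at 63.8, 69.0 and 54.5 CPM in mutant replicates 1, 2 and 3. Mutant replicate 3 was 1.32-fold above the highest wildtype library, the narrowest gap among the 6. The means of 62.5 ± 7.35 and 38.0 ± 3.33 CPM (SD, n = 3 each) gave a log2 fold change of 0.71 (SE 0.11). Its pooled SD of 0.152 (log2) was above that of 67.0% of genes of similar level, so Fam193b is, with Gipr, a gene whose spread was not small. Its neighbours at chr13:55539316-55571120 (- strand), Ddx41 and Tmed9, had log2 fold changes of 0.18 (SE 0.11) and 0.00 (SE 0.09).

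Pisd-ps1 was at 11, 10.9 and 9.61 CPM in wildtype replicate 1, SL203086 and SL203087 and at 18.0, 18.9 and 16.4 CPM in mutant replicates 1, 2 and 3. The groups were separated by a factor of 1.5 between their nearest libraries. The means were 17.8 ± 1.26 and 10.5 ± 0.769 CPM (SD, n = 3 each), with a log2 fold change of 0.76 (SE 0.12). The log2 fold change of the parent gene Pisd was -0.03 (SE 0.11), with libraries between 14.4 and 16.1 CPM over both groups. Pisd-ps2, singled out after its values were seen, was at 0.33 (SE 0.21) with overlapping groups. Sfi1, a centrosome gene on the other strand whose 3′ end lies 846 bases past the end of Pisd-ps1, was at 20.4, 24.4 and 21.2 CPM against 37.4, 40.6 and 28.4 CPM, a log2 fold change of 0.69 (SE 0.14), which edgeR did not call (adjusted p = 0.153) and DESeq2 did (adjusted p = 0.00295).

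Gm7162 had the smallest spread of the 6 on the log2 scale. It was at 10.3, 10.3 and 9.31 CPM in wildtype replicate 1, SL203086 and SL203087, and at 18.6, 18.4 and 16.9 CPM in mutant replicates 1, 2 and 3. The lowest mutant library was 1.64-fold above the highest wildtype library. The means were 18.0 ± 0.910 and 9.97 ± 0.572 CPM (SD, n = 3 each), with a log2 fold change of 0.85 (SE 0.11), and the pooled SD of 0.079 was below that of all but 10% of genes of similar level. Its likely parent Rangap1, singled out after its values were seen, was at -0.27 (SE 0.12), and its libraries overlapped between the groups.

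Gm7162 does not stand alone at its locus. It sits in an intron of Airn, the imprinted antisense RNA of Igf2r, on the strand opposite to Airn, and none of its bases is in an Airn exon. Gm16574, another pseudogene related to Rangap1, lies 282 bases away in the same intron and on the strand of Airn. Gm16574 was at 7.85, 6.72 and 6.10 CPM under wildtype and 11.1, 12 and 12.5 CPM under mutant, a log2 fold change of 0.78 (SE 0.14, edgeR adjusted p = 0.128, DESeq2 adjusted p = 0.000853). Airn was at 45.1, 40.2 and 33.1 CPM against 51.6, 54.2 and 50.3 CPM, a log2 fold change of 0.40 (SE 0.12, edgeR adjusted p = 0.199, DESeq2 adjusted p = 0.0686). All 3 models were thus higher under the mutant label with no overlap. The libraries keep strand, but whether the counting used it is not given in the sources used here, so reads of Gm7162 and of unspliced Airn cannot be told apart.

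Gm49759 had the most even mutant libraries. It was at 28.1, 24.8 and 23.8 CPM in wildtype replicate 1, SL203086 and SL203087, and at 44.1, 45.1 and 44.0 CPM in mutant replicates 1, 2 and 3. The nearest libraries of the groups differed by a factor of 1.56. The means were 44.4 ± 0.620 and 25.6 ± 2.26 CPM (SD, n = 3 each), with a log2 fold change of 0.79 (SE 0.10).

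**Figure D1:**
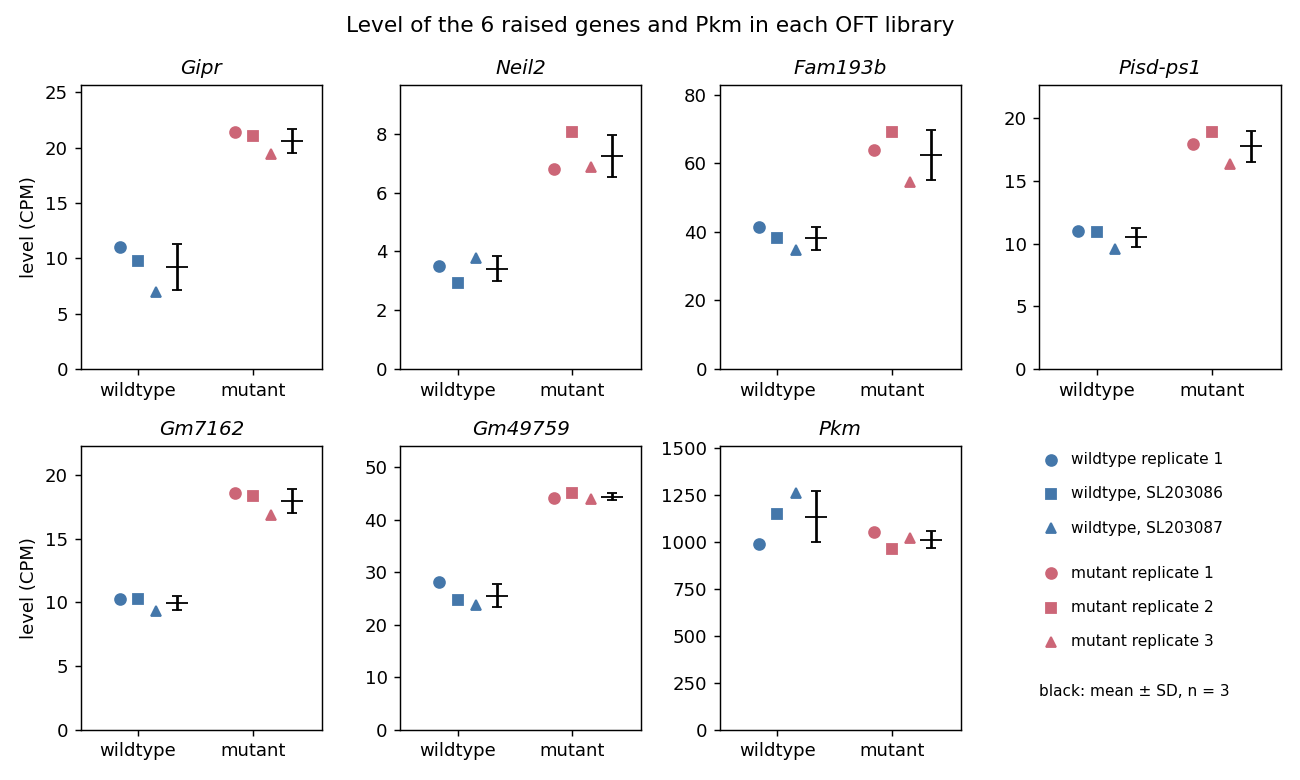
Level in each library of the 6 raised genes and Pkm, in CPM (vertical axes from 0), with symbols for single libraries and black marks for the mean ± SD of 3 libraries. For the 6 raised genes every library labelled mutant is above every wildtype one, as the choice of these genes requires, whereas the Pkm groups overlap.

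Pkm, whose difference did not enter the choice, had overlapping groups. It was at 990 CPM in wildtype replicate 1, 1150 in SL203086 and 1260 in SL203087, and at 1050, 963 and 1020 CPM in mutant replicates 1, 2 and 3. Wildtype replicate 1 fell among the mutant libraries. The means were 1010 ± 43 CPM under mutant and 1130 ± 137 under wildtype (SD, n = 3 each), a log2 fold change of -0.17 (SE 0.12) that was not past the threshold (adjusted p = 0.500 with edgeR, 0.423 with DESeq2). Reads over Gm49759 can have entered the Pkm counts too, so the pair is not independent.

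Within each library, Gm49759 counts came to a small share of Pkm counts, and library size cancels in this share. The genes differ in GC content (48.0% for Gm49759 and 57.7% for Pkm), for which the share is not corrected. The share was 2.84% in wildtype replicate 1, 2.15% in SL203086 and 1.89% in SL203087, and 4.21%, 4.68% and 4.32% in mutant replicates 1, 2 and 3. The groups did not overlap. The choice of Gm49759 by this contrast favours such a gap, so the share is a description and nothing is read from it. The mean share was 4.40 ± 0.248% under mutant and 2.29 ± 0.494% under wildtype (SD, n = 3 each), 1.92-fold apart, and the mean log2 ratio differed by 0.96. With 1 library left out in turn, this difference in log2 ratio was between 0.83 and 1.13. Because 80.3% of Gm49759 is intronic for Pkm, the counts do not say which of the M1 and M2 exons was used, and exon use was not analysed here.

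**Figure D2:**
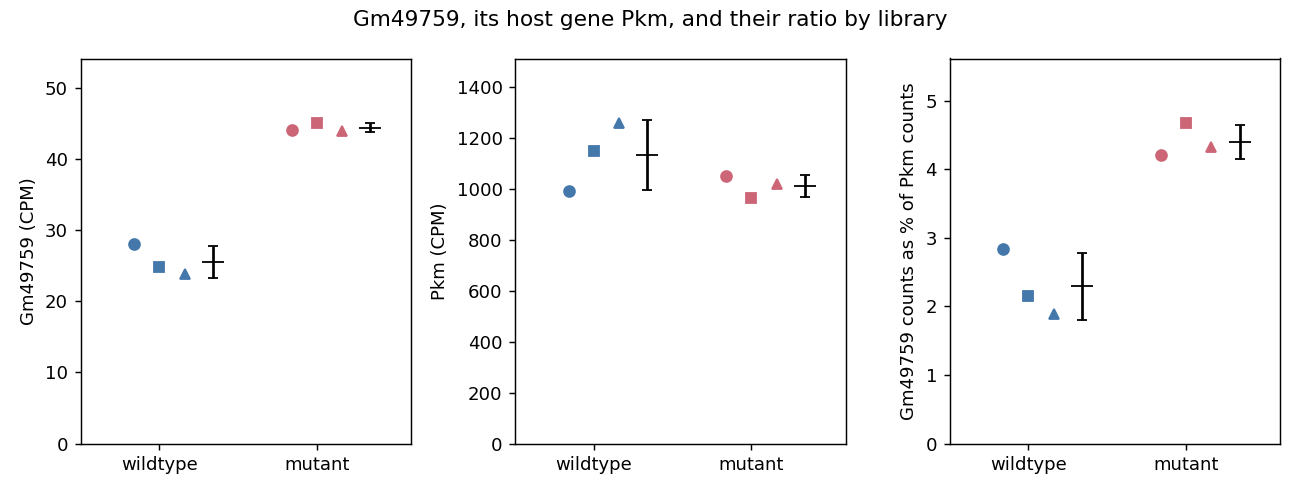
Gm49759 (left, CPM), Pkm (middle, CPM) and Gm49759 counts as a percent of Pkm counts (right) in each library; symbols are single libraries, drawn as circle, square and triangle for wildtype replicate 1, SL203086 and SL203087 and for mutant replicates 1, 2 and 3, and black marks are the mean ± SD of 3. The share is 1.89% to 2.84% under wildtype and 4.21% to 4.68% under mutant, a gap that the choice of Gm49759 favours, while Pkm overlaps.

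Of the 6 raised genes, edgeR called 1, Gm49759 (adjusted p = 0.0345), at a background of 0.0213% of the 28157 genes in either direction. DESeq2 called all 6, at a background of 2.64%. All 6 had groups that did not overlap, with mutant higher, which was so for 10.7% of all genes tested, and 8.94% had the opposite. The rule used this contrast, so nothing is read from these counts. The rule gives no number for its small spread, and no list of genes just outside it can be drawn. The median log2 fold change was 0.82 over the 6 genes (0.71 to 1.15) and 0.011 over all genes tested.

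The 6 genes also had partly similar orders of libraries within each group. SL203087 was the lowest wildtype library for 5 of the 6 and wildtype replicate 1 the highest for 4, whereas mutant replicate 3 was the lowest mutant library for 5 and mutant replicate 2 the highest for 4. Their mean deviation from their own average level (log2) was -0.33, -0.45 and -0.56 in wildtype replicate 1, SL203086 and SL203087 and 0.46, 0.53 and 0.35 in mutant replicates 1, 2 and 3. Pkm had the opposite order among wildtype libraries, with SL203087 highest and replicate 1 lowest. Outside the 6, Airn, Gm16574 and Neat1 also had wildtype replicate 1 highest and SL203087 lowest of the wildtype libraries, and Sfi1 did not. How many of all genes had this order was not counted, so the order is not read as particular to the 6. The genes most like the mean profile of the 6, by Pearson's r over the 6 libraries, were Cenpt and Rad52 (both 0.997), Akap8l (0.996), Plekhn1 (0.995) and Gm43951 (0.994). Their log2 fold changes were 0.32, 0.25, 0.36, 0.57 and 0.64, smaller than those of the 6, and these r describe libraries that share group, depth and dissection.

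Per kilobase of merged exon, the order of levels was nearly the same in both groups. Under the mutant label it ran from Pkm (202 ± 8.59 CPM per kb) through Gm7162 (17.5 ± 0.888), Gm49759 (11.4 ± 0.159), Pisd-ps1 (10.1 ± 0.715), Gipr (5.92 ± 0.317) and Fam193b (5.41 ± 0.637) to Neil2 (1.44 ± 0.141; SD, n = 3). Only Gipr and Fam193b overlapped as neighbours in that order. Under the wildtype label Fam193b (3.30 ± 0.288 CPM per kb) came before Gipr (2.65 ± 0.599), again with overlap, and Gm49759 (6.58 ± 0.582) overlapped with Pisd-ps1 (5.98 ± 0.438). Pkm stood above 98.2% of all genes tested and Neil2 above 46.7%.

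The fold changes were examined with the counts scaled and fitted in other ways. GC content was uneven in this comparison: the share of genes with non-overlapping, higher mutant libraries was 6.01% in the lowest of 10 equal bins of genes by GC content and 20% in the highest bin. Gipr (56.1% GC) and Pisd-ps1 (55.3%) were in bin 9, Fam193b (52.2%) and Gm7162 (52.0%) in bin 7, Neil2 (50.7%) in bin 6, Gm49759 (48.0%) in bin 5 and Pkm (57.7%) in bin 10. With offsets for GC content and length, the log2 fold change was 1.05 for Gipr, 1.03 for Neil2, 0.59 for Fam193b, 0.76 for Pisd-ps1, 0.96 for Gm7162 and 0.79 for Gm49759. That of Pkm was then -0.32. Scaling by library size alone moved the median of all genes to 0.114, and the 6 genes moved with it, to between 0.82 and 1.25.

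**Figure D3:**
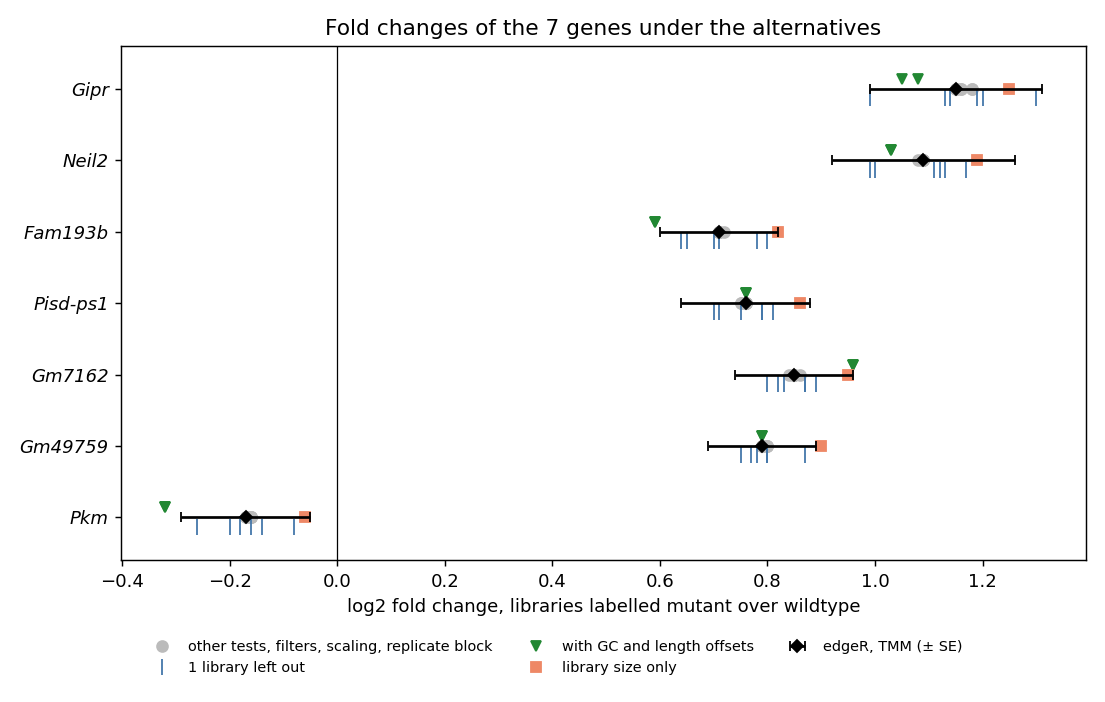
Log2 fold change of the 7 genes, libraries labelled mutant over wildtype, with edgeR and TMM (diamonds, bars ± SE) and under the alternatives (circles, ticks, triangles and squares as keyed). The 6 raised genes, which were chosen for this difference, stay between 0.59 and 1.30 and Pkm between -0.32 and -0.06.

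The classes of the members, which the rule did not use, were compared after their values were seen, over genes that averaged 1 CPM or more, leaving out the members. Among 59 other TEC genes that lie within 1 protein-coding gene on its strand, as Gm49759 does, 19 (32.2%) had higher mutant libraries with no overlap and 3 had lower, against 10.8% and 12.8% of all 16655 genes of that level. Their median log2 fold change was 0.35, edgeR called none of them at an adjusted p of 0.05, 21 had an unadjusted p under 0.05 and DESeq2 called 8. The genes hosting them had a median of -0.02, with 5 of 59 higher and 7 lower, and 43 of the 59 TEC genes had a higher log2 fold change than their host. The median of TEC gene minus host was 0.43 over the 59 pairs, beside 0.96 for Gm49759 and Pkm, which the choice of Gm49759 favours and from which nothing is read.

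The pseudogenes stood differently toward their classes. Of 36 other transcribed unprocessed pseudogenes, the class of Pisd-ps1, 9 (25%) were higher without overlap and the median log2 fold change was 0.18. Of 2335 other processed pseudogenes, the class of Gm7162, only 30 (1.28%) were higher without overlap and 491 (21.0%) were lower, with a median of -0.19. Among 13130 other protein-coding genes, the class of Gipr, Neil2 and Fam193b, 11.7% were higher and 11.8% lower.

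**Figure D4:**
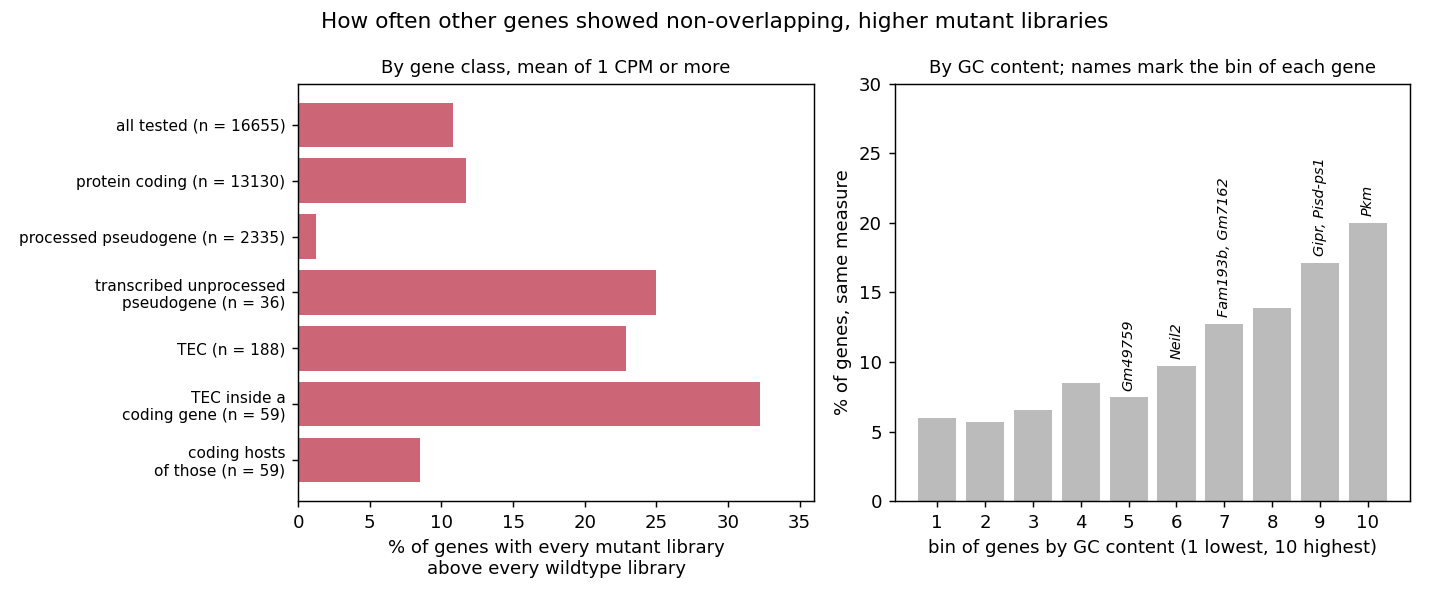
Percent of genes with a mean of 1 CPM or more in which every library labelled mutant was above every wildtype library, by gene class (left; n in parentheses, members left out of the classes but not of all tested) and by bin of GC content (right; gene names mark the bin of each member). TEC genes inside a coding gene reach 32.2%, their hosts 8.47% and processed pseudogenes 1.28%, and the share grows from 6.01% to 20% from the lowest to the highest GC bin.

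Retained introns were looked at in the same way, since Gm49759 is largely intronic. In Neil2 61.5% and in Fam193b 62.4% of the exon bases are annotated only in retained-intron transcripts, which is above 97.5% and 97.7% of the protein-coding genes tested, whereas the value was 9.45% for Gipr and 23.5% for Pkm. Over other protein-coding genes that averaged 1 CPM or more, the share with higher mutant libraries had no steady order along this property: 9.04% of 5562 genes with none, 13.6% of 4069 with up to 25%, 14.2% of 2495 with up to 50% and 12.7% of 1004 with more than 50% were higher without overlap. The medians of these classes were -0.02, 0.02, 0.02 and -0.04. Counts per gene do not separate exons from introns, so which stretch of Neil2 or Fam193b gave the added reads was not analysed here.

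In a list of 20 transcripts known to stay in the nucleus or to keep introns, most were higher under the mutant label. The list was chosen with earlier results of these data known, so its counts are a description. Of the 20, edgeR called none, while 13 had an unadjusted p under 0.05 (16.1% of all genes tested did). DESeq2 called 8, all higher (2.64% of all genes in either direction). Non-overlapping, higher mutant libraries were found for 11 and lower ones for none (10.7% and 8.94% of all genes). Among the 16655 genes that averaged 1 CPM or more, as all 20 did, 10.8% were higher and 12.8% lower in this way. Of those 16655 genes, 3671 had an unadjusted p under 0.05 and DESeq2 called 721. The median log2 fold change of the 20 was 0.29. Neat1, the RNA scaffold of paraspeckles, was at 0.88 (SE 0.15, edgeR adjusted p = 0.128, DESeq2 adjusted p = 0.000319). Malat1, a nuclear speckle RNA, was at 419, 261 and 216 CPM under wildtype and 557, 507 and 510 CPM under mutant, with wildtype replicate 1 highest and SL203087 lowest of its group, as for 4 and 5 of the 6 raised genes. Ccnl2, a cyclin of the splicing machinery with a detained intron, was at 0.62 (SE 0.12), and Ogt, the O-GlcNAc transferase regulated by intron retention, at 0.46 (SE 0.13). The part of nuclear or unspliced RNA in the levels of the 6 genes was not tested.

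No gene of the pathway lists set beside the coding members passed edgeR's adjusted p of 0.05. Of 20 genes of base excision repair, none was called by edgeR or DESeq2 and 1 had an unadjusted p under 0.05 (16.1% of all genes did). Without overlap, 1 was higher and 2 were lower (10.7% and 8.94% of all genes), and nothing is read from these counts. The median log2 fold change was 0.03. Neil1, another glycosylase of the Nei family, was at 5.05 ± 0.662 CPM under wildtype and 6.83 ± 0.653 under mutant (SD, n = 3 each; log2 fold change 0.43, SE 0.16, edgeR adjusted p = 0.250), without overlap, and Neil3, of the same family, was at -0.07 (SE 0.11). The 2 that were lower, named after their values were seen, were the DNA ligase gene Lig1 (-0.15, SE 0.09) and Parp1 (-0.16, SE 0.10). Mutyh and Mpg, glycosylases for other lesions, were at 0.37 (SE 0.23) and 0.26 (SE 0.16), and Ung, which removes uracil, was at -0.29 (SE 0.16).

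For Gipr, 24 of 27 genes of incretin and cyclic AMP signaling were tested, and the hormone gene Gip was not among them. None was called by edgeR or DESeq2. An unadjusted p under 0.05 was found for 5 (16.1% of all genes), and 5 were higher and 2 lower without overlap (10.7% and 8.94% of all genes), and the median log2 fold change was 0.07. Of the 5 higher, Glp2r (mean 0.0613 CPM under wildtype and 0.209 under mutant) and Sctr (0.038 and 0.113 CPM) were near the floor. The others were Adcy3, Adcy4 and Adcy6. Adcy3, an adenylyl cyclase, was at 12.1 ± 1.11 CPM under wildtype and 16.3 ± 1.41 under mutant (SD, n = 3 each; log2 fold change 0.44, SE 0.12), and Prkar2a, a regulatory subunit of protein kinase A, at 99.3 ± 6.19 and 78.1 ± 5.58 CPM (-0.35, SE 0.10). The glucagon receptor gene Gcgr was at 0.72 (SE 0.33) and the cyclase gene Adcy2 at 0.52 (SE 0.30), both with overlapping groups.

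For Pisd-ps1, 13 genes of phosphatidylserine and phosphatidylethanolamine synthesis had a median of 0.02. None was called by edgeR or DESeq2 and 1 had an unadjusted p under 0.05 (16.1% of all genes did). The largest differences among them were those of Pemt (-0.56, SE 0.26), Etnk2 (0.38, SE 0.23), Pcyt1a (-0.30, SE 0.09) and Chpt1 (-0.27, SE 0.12), of which Pcyt1a had non-overlapping groups. Without overlap, 2 genes of the list were higher, the choline kinase genes Chka (0.19, SE 0.10) and Chkb (0.17, SE 0.09), named after their values were seen, and 1, Pcyt1a, was lower. Over all genes tested, 10.7% were higher and 8.94% lower in this way. Fam193a, the paralog of Fam193b, was at 0.18 (SE 0.11) with overlapping groups.

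Around Pkm, 16 of 18 other genes of glycolysis had a negative log2 fold change, with a median of -0.24, beside 0.011 over all genes tested. None was called by edgeR and 6 had an unadjusted p under 0.05 (16.1% of all genes did, and 3671 of the 16655 that averaged 1 CPM or more). DESeq2 called 1, Ldhb, lower (2.64% of all genes in either direction). Without overlap, 3 were lower and 1 was higher (8.94% and 10.7% of all genes, 12.8% and 10.8% of those that averaged 1 CPM or more). Ldhb, the heart form of lactate dehydrogenase, was at 255, 310 and 404 CPM under wildtype and 216, 180 and 254 CPM under mutant (-0.58, SE 0.17, edgeR adjusted p = 0.203, DESeq2 adjusted p = 0.0380). Gapdh (-0.33, SE 0.13), Hk1 (-0.39, SE 0.15) and the muscle enolase gene Eno3 (-0.37, SE 0.15) had their lowest wildtype level in replicate 1 or, for Hk1, in SL203086, and their highest in SL203087. Pklr, the liver and red cell pyruvate kinase gene, was at or below 1.35 CPM in every library. The genes beside Pkm, Parp6 and Gramd2, were at 0.31 (SE 0.11) and 0.19 (SE 0.42), and Parp6 was higher without overlap.

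Of the 5 splicing regulators of Pkm, none was called by edgeR or DESeq2 and the median was 0.03. An unadjusted p under 0.05 was found for 1, Ptbp1 (16.1% of all genes), and the same 1 was higher without overlap (10.7% of all genes). Ptbp1 was at 114, 110 and 98.6 CPM under wildtype and 132, 134 and 116 CPM under mutant, apart without overlap (log2 fold change 0.25, SE 0.10, edgeR adjusted p = 0.283). Hnrnpa2b1 was at -0.16 (SE 0.11), Hnrnpa1 at -0.09 (SE 0.10) and Rbm4 at 0.11 (SE 0.23).

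Promoter sequences in RefSeq (GRCm38.p6) were matched by symbol for 2 of the 7 members, Fam193b and Pkm. In the 300 bases around each start on both strands, neither the RBPJ core TGGGAA, the E-box CACGTG nor the TATA box TATAAA occurred in the Fam193b promoter or in the 2 Pkm promoters, and the GC box GGGCGG occurred 1 time, in a Pkm promoter. Over 32851 promoters, those letters occurred in 25.6%, 7.15%, 13.6% and 35.7%, in that order. The windows are short, and nothing is read from these matches about any factor.

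Some marker lists differed in median between the labels and others hardly did. All markers of OFT myocardium, endothelium, smooth muscle, mesenchyme and epicardium were above the floor in some library. The summed level of 17 myocardial markers was 37600 to 55700 CPM under wildtype and 26100 to 37100 CPM under mutant. The median log2 fold change was -0.52, and 6 of the 17 were lower without overlap (8.94% of all genes were, and 12.8% of those that averaged 1 CPM or more). That of 10 mesenchymal markers was 4850 to 9380 CPM against 8780 to 11400 CPM, with a median of 0.59 and 3 of the 10 higher without overlap (10.7% of all genes were). Blood markers summed to 5410 to 11900 CPM against 6160 to 6320 CPM, with a median of -0.56 and 3 of the 10 lower without overlap (8.94% of all genes were). Neuronal markers summed to 11.5 to 23.7 CPM against 25.9 to 34.3 CPM, with a median of 0.12 and 1 of the 7 higher without overlap (10.7% of all genes were). The medians of the endothelial, smooth muscle and epicardial markers were -0.03, 0.08 and -0.18. A median near 0 can hide opposite changes: without overlap, 2 of 7 smooth muscle markers were higher and 2 lower. Of 12 endothelial markers 2 were higher and 0 lower, and of 8 epicardial markers 0 were higher or lower. The medians of the neural crest and glia, macrophage, and endoderm and liver markers were 0.32, -0.03 and -1.89, the last with sums of 2.09 to 96.5 CPM against 1.83 to 6.38 CPM. Fewer cells of a type and less RNA per cell cannot be told apart in such libraries. The part of these shifts in the levels of the 7 genes was not tested.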

How the data were processed

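Bulk RNA-Seq was measured in 6 libraries of E13.5 OFT, 3 per group by the labels. Libraries were stranded total RNA after ribosomal RNA removal, read as pairs of 50 bases. The authors aligned reads to mm10 with TopHat (TopHat2 2.1.0 in the submitters' processing notes) and counted them per gene with GenomicAlignments. The deposited values are whole-number counts, not normalized. The annotation release, strand and overlap settings of the counting are not given in the sources used here, and they decide which reads of Gm49759, Pkm, Gm7162 and Airn were counted.

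Counts were analysed in R 4.3.3. A gene entered the fit if its reads over the 6 libraries summed to more than 5, which removed 620. The 28157 others were normalized by TMM and fitted with the quasi-likelihood test of edgeR 4.0.16 on group alone, with Benjamini-Hochberg adjustment at 0.05. CPM are on TMM-scaled library sizes. DESeq2 1.42.0, limma-voom (limma 3.58.1), other scalings and filters, GC and length offsets (splines of 4 df), a replicate block and the loss of each library were alternatives. The fits were tested on simulated data. GENCODE (vM21, mm10) holds 28723 of the 28777 identifiers and gave positions, classes, GC content and transcripts, which were compared with blastn 2.17.0 and by exact windows of 50 bases on either strand.

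The members and gene lists were chosen with earlier results of these data known. Named genes are the members, up to 4 genes per list with the largest log2 fold change at a mean of at least 1 CPM, relatives fixed by name, neighbours and overlapping genes, and the 5 genes most like the mean profile. Pooled OFTs make up a replicate, and p-values measure the spread between pools.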

Additional observations from a re-analysis of the deposited data

How the results depend on the processing

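The direction of the 6 raised genes and of Pkm was the same under each of the 16 alternatives. For the 6 raised genes their choice favours this, and nothing is read from it. The median log2 fold change of the 6 was between 0.775 and 0.878 under 15 of these and 0.924 with scaling by library size only, which moved all genes up, so that Gm7162 was at 0.95 and Gm49759 at 0.90. With GC and length offsets Gm7162 was at 0.96, with or without the replicate block. Pkm was called only with the replicate block and the GC and length offsets together (-0.32, adjusted p = 0.0112). The medians of some lists moved too. With library size only, the medians were 0.135 (base excision repair), 0.171 (incretin and cAMP signaling), 0.125 (phosphatidylserine and phosphatidylethanolamine synthesis) and 0.132 (Pkm splicing regulators). The median of all genes tested was then 0.114. With GC and length offsets they were -0.007 for incretin and cAMP signaling and -0.042 for phosphatidylserine and phosphatidylethanolamine synthesis, and with the replicate block added -0.006 and -0.039. With 1 library left out, base excision repair ranged from -0.022 to 0.118, incretin and cAMP signaling from 0.08 to 0.128, phosphatidylserine and phosphatidylethanolamine synthesis from -0.018 to 0.079 and Pkm splicing regulators from -0.045 to 0.064. The median of the nuclear and detained-intron transcripts was between 0.202 and 0.400 under all 16, and that of glycolysis between -0.328 and -0.130. The causes were not tested.

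The number of genes called was 6 with edgeR and 742 with DESeq2, and from 4 to 7 under 6 other settings. With 1 library left out it was between 1 and 2593: 2593 without wildtype replicate 1, 3 without SL203086, 2 without SL203087, mutant replicate 1 or mutant replicate 2, and 1 without mutant replicate 3. Same-numbered libraries deviated together with r = 0.096, 0.159 and 0.420 for numbers 1, 2 and 3 by the sample titles. Wildtype replicate 1 was closer to mutant replicate 2 (r = 0.277) than to mutant replicate 1, whereas SL203086 and SL203087 each correlated best with its own title number. The labels name no shared litter or day, so a pairing was not established, and the fit without the block was kept. The replicate block gave 1577 calls, 83 with wildtype numbers 2 and 3 exchanged, and 2208 with the GC and length offsets added. Under the exchange, SL203087 had r = -0.441 with mutant replicate 2 and SL203086 had r = -0.121 with mutant replicate 3. The difference in the log2 ratio of Gm49759 to Pkm was 0.96 with the block, which cannot change it, since each block holds 1 library of each group. Depth limits little here, since each of the 6 genes had at least 122 counts in each library.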
